A study of Rattus norvegicus with 6 samples.

Results

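Astrocytes and Muller glia, the supporting glial cells of brain and retina, were followed through 10 marker genes in RNA from cultures of rat retinal ganglion cells (RGCs), the neurons whose axons form the optic nerve. The markers were Slc1a3, Slc1a2, Glul, Rlbp1, Aqp4, Aldh1l1, Gja1, S100b, Sox9 and Fabp7. They were chosen by symbol from a table of 17366 transcripts, which holds 1 transcript for each, and all 10 were found. The series has 6 libraries, 3 per group. RGCs of Sprague Dawley rats labelled age P5 were grown for 10 days and then received for 12 h either Chrdl1 at 1 µg/ml or vehicle, which held 0.1% BSA and 4 mM HCl. Chrdl1, a protein that astrocytes secrete, is an antagonist of bone morphogenetic proteins. No further agent or allele is given in the labels. Each title ends in 1 of 3 codes, and each code is carried by 1 vehicle and 1 Chrdl1 library, called pair A, pair B and pair C from the lowest code to the highest. What a code stands for is not stated in the labels. Nothing in them ties a library to its own animal or culture, so the p-values below measure the spread between these libraries, which may be technical. Where 3 values of a gene are given with no library named, they are its mean FPKM in pair A, pair B and pair C. The extraction text names visual cortex, where the other labels name RGC cultures.

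Glia take up the glutamate that neurons release, convert it to glutamine and return it, and they are joined to each other by gap junctions. Muller glia span the retina and also handle water, potassium and retinoids. Astrocytes enter the retina along the optic nerve. In a culture of neurons, transcripts of such genes can come from glia that remain or from neurons that express the gene themselves. The FPKM values (fragment counts scaled to transcript length and to library depth) were scaled to 14546600 to 26551800 reads per library, as recovered from the deposited values. The reads recovered on the listed transcripts were 9279476 to 17239372 per library. Vehicle of pair B had the lowest number of both. In build rn6 the listed transcripts lie at chr2:57860881-57935352 (Slc1a3, minus strand), chr13:71331052-71340207 (Glul, plus), chr20:37876650-37889094 (Gja1, plus), chr1:141097795-141111375 (Rlbp1, minus), chr20:13130636-13142856 (S100b, minus) and chr10:101288528-101294028 (Sox9, plus). The RGC gene list summed to 3357 to 4328 FPKM in every library. Pair C stood apart from the other pairs in most of the glial markers, so results are also given pair by pair.

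Of the 10 markers, only Glul was abundant, and 5 stayed below 1 FPKM in every library. Glul summed to 78.0% to 93.6% of the 10 markers' FPKM. The other 9 markers summed to 5.18, 4.98 and 17.8 FPKM in vehicle of the 3 pairs, and to 4.70, 3.64 and 21.6 FPKM in the Chrdl1 libraries. These sums lay close together in pairs A and B, and in pair C they were 4.27 times the mean of the others. In the order of mean level the markers were Glul, Slc1a2, Gja1, Slc1a3, Rlbp1, S100b, Fabp7, Sox9, Aldh1l1 and Aqp4. Only Glul was separated from its neighbour, and the ranges over 6 libraries overlapped for every later pair of neighbours in this order. Within libraries, Slc1a3 was above Rlbp1 and Sox9 above Aldh1l1 in 6 of 6, and Aldh1l1 above Aqp4 in 5 of 6. The other neighbours held their order in 2 to 4 of 6 libraries.

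**Figure D1:**
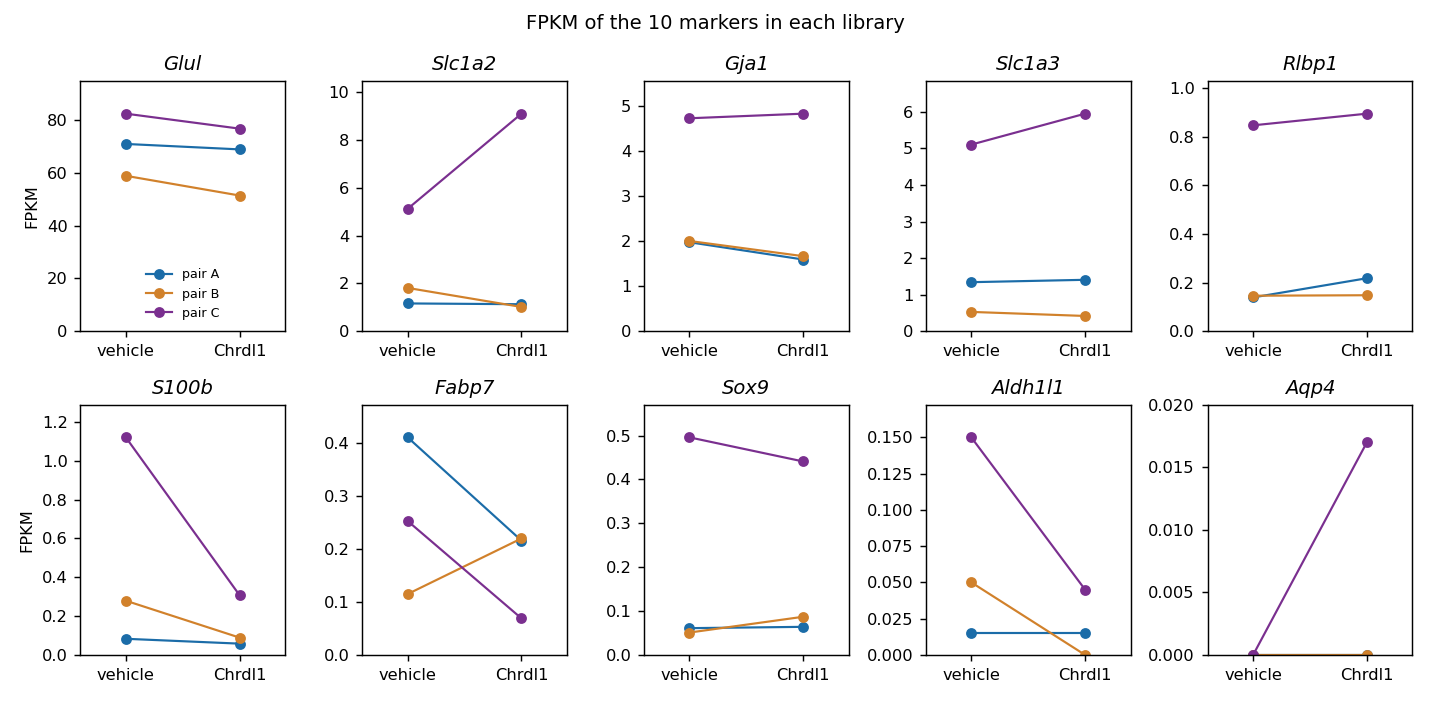
FPKM (vertical axes, from 0, each panel with its own scale) of the 10 markers in vehicle and Chrdl1 libraries, in order of mean level; each point is 1 library and lines join the libraries that share a title code. Pair C is above the other 4 libraries in 7 panels, and Glul is the only marker above 10 FPKM.

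The glutamate transporters were low in pairs A and B and higher in pair C. Slc1a3, encoding GLAST, the main glutamate transporter of Muller glia, was at 1.34, 0.528 and 5.10 FPKM in vehicle of pair A, pair B and pair C, against 1.41, 0.417 and 5.95 FPKM in the Chrdl1 libraries. All 3 pairs were separate for this gene, from 29 and 36 reads in pair B to 512 and 544 reads in pair C. Slc1a2, encoding GLT-1, the main glutamate transporter of astrocytes, was at 1.16, 1.81 and 5.12 FPKM in vehicle and 1.13, 1.01 and 9.10 FPKM in Chrdl1 libraries. Pairs A and B overlapped, and both pair C libraries were higher. The listed Slc1a2 transcript is 949 bases long, on chromosome 3 from 92640765 to 92665731 of build rn6, so its FPKM rests on that short model and on 22 to 209 reads.

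Glul, encoding glutamine synthetase, which makes glutamine from glutamate and ammonia, was at 71.0, 58.9 and 82.5 FPKM in vehicle and 69.0, 51.5 and 76.8 FPKM in Chrdl1 libraries. It ranked between the 93.0th and 96.0th percentile of all listed transcripts. Its pairs did not overlap, but pair C was only 1.27 times the mean of pairs A and B, against 5.99 times for Slc1a3. Rlbp1, encoding the retinaldehyde-binding protein CRALBP of Muller glia and pigment epithelium, was at 0.139, 0.146 and 0.847 FPKM in vehicle and 0.218, 0.148 and 0.895 FPKM in Chrdl1 libraries. Pairs A and B held 5 to 12 reads of it per library and pair C held 53 and 51 reads.

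The channel genes differed from each other. Gja1, encoding connexin 43, which forms the gap junctions of astrocytes and also of several stromal cells, was at 1.97, 2.0 and 4.72 FPKM in vehicle and 1.59, 1.66 and 4.82 FPKM in Chrdl1 libraries. Aqp4, encoding the water channel of astrocyte and Muller cell endfeet, had 0 reads in 5 libraries and 2 reads, or 0.017 FPKM, in the Chrdl1 library of pair C. In the libraries at 0, a count of 0 allows up to 3 reads, which is 0.0233 to 0.0426 FPKM for this 4839-base transcript. Limits and intervals made from reads cover counting error only.

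Aldh1l1, an enzyme of folate metabolism used as a general astrocyte marker, was at 0.015, 0.050 and 0.150 FPKM in vehicle and 0.015, 0 and 0.045 FPKM in Chrdl1 libraries, from 0 to 11 reads. S100b, a calcium-binding protein of astrocytes and Muller glia, was at 0.083, 0.279 and 1.12 FPKM in vehicle and 0.058, 0.089 and 0.307 FPKM in Chrdl1 libraries. Of its 69 reads, 44 were in the vehicle library of pair C. Sox9, a transcription factor of glial and progenitor cells, was at 0.061, 0.051 and 0.496 FPKM in vehicle and 0.064, 0.087 and 0.441 FPKM in Chrdl1 libraries. Its pair C libraries held 53 and 43 reads and the other 4 held 3 to 8. Fabp7, a fatty acid-binding protein of radial glia and immature astrocytes, was at 0.411, 0.115 and 0.253 FPKM in vehicle and 0.216, 0.220 and 0.069 FPKM in Chrdl1 libraries. Each library held 1 to 6 reads of it, and its pairs overlapped.

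The first comparison asked whether 12 h of Chrdl1 altered these glial transcripts. Of the 10 markers, 4 (Glul, Slc1a2, Gja1 and Slc1a3) reached 1 FPKM in at least 3 libraries and entered the test, limma on log2(FPKM + 1) with Benjamini-Hochberg adjustment over 10390 transcripts. None of the 4 passed at an adjusted p under 0.05 and none had an unadjusted p under 0.05, where 0% of all tested transcripts were called in either direction and 18 had an unadjusted p under 0.05. Treatment was the only term in this fit, so differences between codes entered its error. It is therefore the less sensitive fit for genes that differ between codes, as these 4 did. With the title code as a block again 0 of 4 passed, with 0% of all transcripts called. In that limma fit 535 of all tested transcripts and 0 of the 4 markers had an unadjusted p under 0.05. The scale, log2(FPKM + 1), understates the fold change of a low gene. The median log2 fold change, Chrdl1 minus vehicle, was -0.036 for the 4 markers and -0.028 for all tested transcripts.

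Glul averaged 70.8 ± 11.8 FPKM (SD, n = 3) in vehicle and 65.7 ± 12.98 FPKM (n = 3) in Chrdl1 libraries. Its log2 fold change was -0.11 ± 0.18 (SE), with a 95% interval from -0.54 to 0.32 and, with the block, from -0.25 to 0.024 (limma adjusted p = 0.9998 and 0.872). It was lower with Chrdl1 in 3 of 3 pairs, by log2 differences of -0.042, -0.19 and -0.10, a pattern that 19.5% of tested transcripts had. Gja1 averaged 2.90 ± 1.58 FPKM in vehicle and 2.69 ± 1.85 FPKM with Chrdl1, and had a log2 fold change of -0.12 ± 0.40. Slc1a3 averaged 2.32 ± 2.44 and 2.59 ± 2.95 FPKM, and its log2 fold change was 0.039 ± 0.70. Slc1a2 averaged 2.70 ± 2.12 and 3.75 ± 4.64 FPKM, and its log2 fold change was 0.073 ± 0.69. For these 3 genes the SD within a group was large beside the mean, and pair C lay apart in both groups. The block narrowed the SE to 0.12, 0.12 and 0.18 for Gja1, Slc1a3 and Slc1a2.

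Slc1a2 moved in opposite directions in the pairs, at -0.022 in pair A, -0.48 in pair B and 0.72 in pair C. Without both pair C libraries its log2 fold change was -0.25 and that of Slc1a3 was -0.035, each with the sign turned, and Gja1 and Glul were at -0.19 and -0.12. None passed in that fit. The intervals with the block reached from -0.32 to 0.47 for Slc1a2 and from -0.37 to 0.14 for Gja1, so changes inside them could not be told from none.

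**Figure D2:**
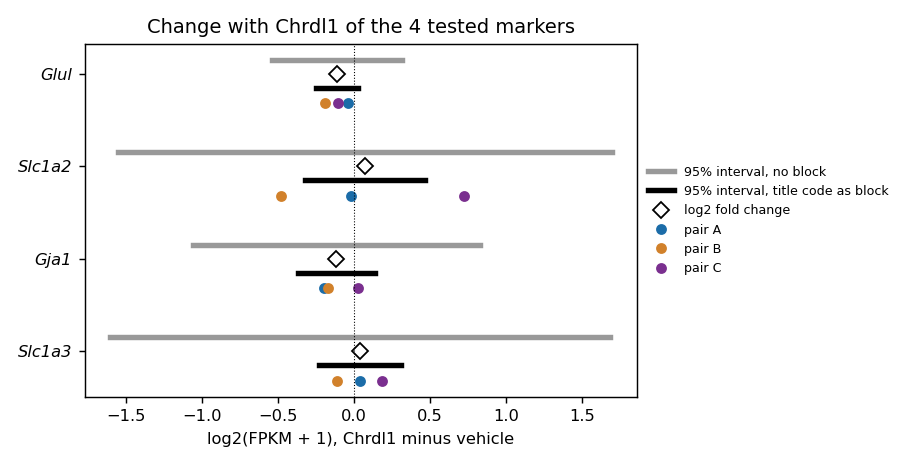
Log2(FPKM + 1), Chrdl1 minus vehicle (horizontal axis), of the 4 tested markers, with 95% intervals of the fits without and with the title code as a block, and the 3 pairs as coloured points. All 8 intervals include 0, and the pairs of Slc1a2 run from -0.48 to 0.72.

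The 6 markers below the filter are described by their reads. S100b was lower with Chrdl1 in 3 of 3 pairs, its vehicle and Chrdl1 libraries holding 3 and 2 reads (pair A), 6 and 3 reads (pair B) and 44 and 11 reads (pair C). Pooled over the groups these were 53 and 16 reads, a depth-scaled ratio of 0.281 with an exact 95% counting interval from 0.150 to 0.499. That interval holds no spread between libraries, and limma without the filter gave a log2 fold change of -0.32 ± 0.25 (adjusted p = 1). Among all transcripts above 0 in some library, 16.5% were lower in all 3 pairs. Aldh1l1 had 14 reads in vehicle and 4 in Chrdl1 libraries, of which 11 and 3 were in pair C. Rlbp1, with 66 and 71 reads, lay above its vehicle partner in 3 of 3 pairs, by log2 differences of 0.0025 to 0.097, a direction shared by 7.61% of transcripts above 0 in some library and 7.55% of tested ones. Sox9 had 62 reads in vehicle and 57 in Chrdl1 libraries, and Fabp7 had 11 and 7.

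Most of the markers were higher in pair C. Both pair C libraries were above the other 4 in 7 of 10 markers (Slc1a3, Slc1a2, Glul, Rlbp1, Gja1, S100b and Sox9), where 24% of all transcripts above 0 in some library showed this. They were 4 of the 4 tested markers (23.4% of tested transcripts) and 3 of the 6 others (25.5% of transcripts above 0 that did not pass the filter). For S100b the margin was small, 0.307 FPKM in the Chrdl1 library of pair C against 0.279 in vehicle of pair B. Pair C averaged at least 2 times the mean of pairs A and B in 7 markers: 7.13 times for Sox9, 5.99 for Slc1a3, 5.61 for S100b, 5.56 for Slc1a2, 5.35 for Rlbp1, 4.88 for Aldh1l1 and 2.64 for Gja1. Of tested transcripts 6.16% reached that ratio, and of those above 0 in pair A or B 13.2% did. Fabp7 was at 0.669 times and Aqp4 gave no ratio.

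A limma F-test of the 3 codes, with treatment as a term, called all 4 tested markers, against 47.4% of all tested transcripts. The libraries of a code may share a culture, so this test sets the distance between codes against the spread within them and does not show separate cultures to differ. Pair C minus the mean of pairs A and B was 1.80 ± 0.13 (SE) on the log2(FPKM + 1) scale for Slc1a3 and 1.80 ± 0.19 for Slc1a2 (F-test over the 3 codes, limma adjusted p = 7.1e-07 and 3.7e-05). It was 1.04 ± 0.12 for Gja1 and 0.35 ± 0.067 for Glul (same F-test, limma adjusted p = 9.8e-05 and 0.000499). The p-values belong to the F-test, not to this contrast. The 95% intervals of the contrast were 1.52 to 2.09 for Slc1a3, 1.38 to 2.22 for Slc1a2, 0.77 to 1.31 for Gja1 and 0.21 to 0.50 for Glul. The median was 1.42 for the 4 markers and 0.050 for all tested transcripts. Slc1a3 and Slc1a2 lay at the 99.0th percentile of this difference among tested transcripts, Gja1 at the 96.0th and Glul at the 83.0th. Slc1a2, Gja1 and Glul were at 1 FPKM or more in all 6 libraries. Slc1a3 was so only in those of pairs A and C, and the filter asked for at least 3 libraries. It therefore entered the test only with the help of pair C, where it was high. Its call, its percentile and its part in the median of the 4 markers carry that selection. Of the 4930 transcripts called, 3174 (30.5% of those tested) had pair C above the mean of pairs A and B, and after quantile normalization 2110 of 4648 were, so the balance over all transcripts depends on the scaling, while all 4 markers were called with pair C above that mean under both.

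**Figure D3:**
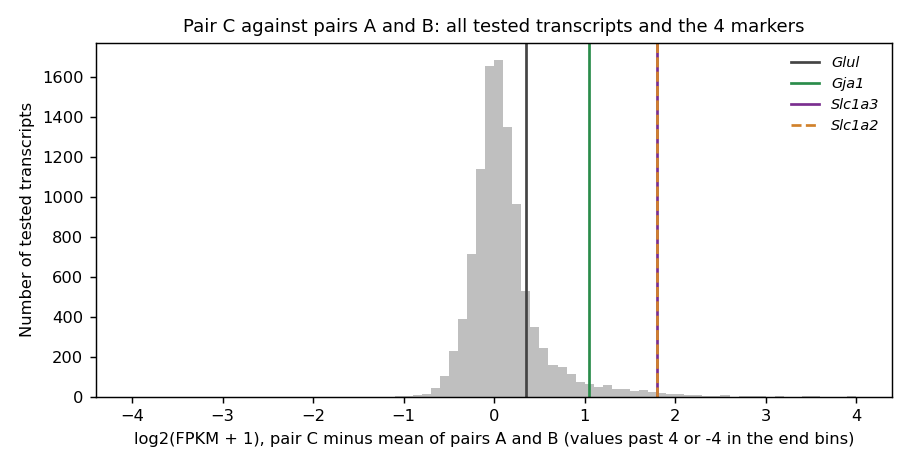
Number of tested transcripts (vertical axis) by log2(FPKM + 1), pair C minus the mean of pairs A and B (horizontal axis, bins of 0.1), with lines for the 4 tested markers. Slc1a3 and Slc1a2 coincide at 1.80, far right of the median of all transcripts at 0.050.

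For the low markers the difference was read from recovered reads. Voom, limma's method for read counts, was run on all 14171 transcripts above 0 with no filter, a setting added after the data were seen. It called 8 of 10 markers across the codes, each with its highest mean in pair C, against 45% of all transcripts called and 30.6% called with pair C above the mean of pairs A and B. Among the low markers Rlbp1 was at 2.38 ± 0.41 (SE, log2 of depth-scaled reads), Sox9 at 2.73 ± 0.44, S100b at 2.43 ± 0.49 and Aldh1l1 at 2.08 ± 0.69 (voom F-test over the codes, adjusted p = 0.000268, 0.000133, 0.00107 and 0.0482). On log2(FPKM + 1) with no filter, S100b (limma adjusted p = 0.0579) and Aldh1l1 (0.264) did not pass. Fabp7 and Aqp4 were not called by either. With bulk RNA, more cells of a type and more RNA per cell cannot be told apart.

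**Figure D4:**
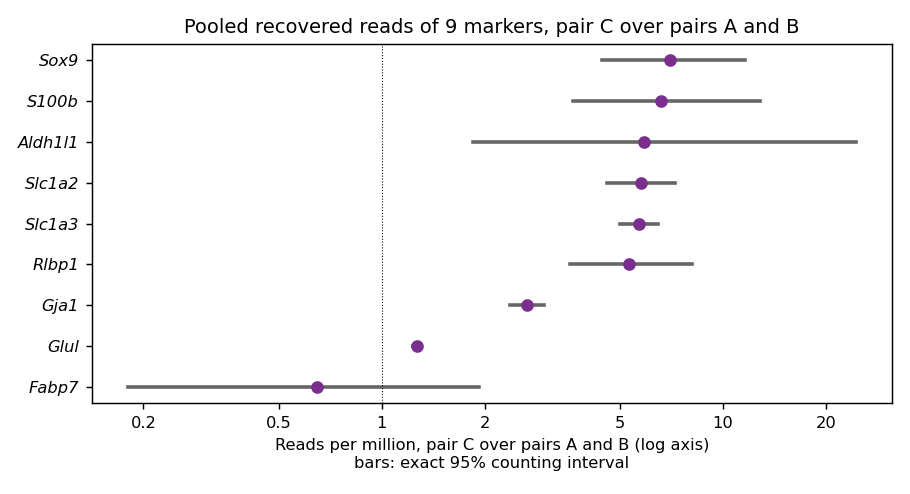
Depth-scaled reads of pair C over those of pairs A and B, pooled (horizontal log axis), for the 9 markers with reads in pairs A and B; bars are exact 95% intervals for counting error only. Sox9, S100b, Aldh1l1, Slc1a2, Slc1a3 and Rlbp1 lie between 5.29 and 7.01, Glul at 1.26, and the interval of Fabp7, 0.180 to 1.93, spans 1.

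Slc1a3, Rlbp1, Slc1a2 and Gja1 each had both pair C libraries highest, as 24% of all transcripts above 0 in some library did. Between pairs A and B they did not move alike: pair A was 2.91 times pair B for Slc1a3, 1.21 for Rlbp1, 0.97 for Gja1 and 0.81 for Slc1a2. The promoters of these 4 markers are shown. They are the 250 bases before each gene's start in RefSeq (assembly GRCr8, another build than that of the FPKM table), 5′ to 3′, taking the first of 3 listed starts for Slc1a3 and of 2 for Slc1a2. Capitals mark matches on either strand to ACAAAG or ACAATG (letters bound by SOX proteins), TTGGCA (letters bound by nuclear factor I), GGGCGG (a GC box) or TATAAA.
Slc1a3, chr2:59557809-59558058, minus strand: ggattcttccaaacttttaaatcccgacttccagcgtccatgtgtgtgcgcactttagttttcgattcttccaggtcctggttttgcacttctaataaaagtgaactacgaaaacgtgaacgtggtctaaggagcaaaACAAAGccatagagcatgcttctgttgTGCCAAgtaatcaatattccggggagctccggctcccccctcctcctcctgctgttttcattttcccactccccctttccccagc
Rlbp1, chr1:142731622-142731871, minus strand: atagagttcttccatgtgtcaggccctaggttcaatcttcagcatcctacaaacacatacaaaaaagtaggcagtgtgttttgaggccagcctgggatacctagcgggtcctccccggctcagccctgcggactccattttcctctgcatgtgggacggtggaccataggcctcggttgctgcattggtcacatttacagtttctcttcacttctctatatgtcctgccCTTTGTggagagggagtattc
Slc1a2, chr3:109459859-109460108, plus strand: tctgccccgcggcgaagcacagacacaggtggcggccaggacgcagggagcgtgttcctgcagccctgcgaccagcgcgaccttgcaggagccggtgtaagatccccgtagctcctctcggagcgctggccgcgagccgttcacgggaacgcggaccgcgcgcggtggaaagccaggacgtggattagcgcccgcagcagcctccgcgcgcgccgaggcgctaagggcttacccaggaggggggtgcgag
Gja1, chr20:36302314-36302563, plus strand: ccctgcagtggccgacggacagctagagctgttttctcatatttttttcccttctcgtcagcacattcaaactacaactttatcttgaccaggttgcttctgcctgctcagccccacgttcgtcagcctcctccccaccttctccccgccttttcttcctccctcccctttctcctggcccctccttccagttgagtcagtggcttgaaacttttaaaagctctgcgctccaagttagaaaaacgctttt
The promoter table held 9 of the 10 markers, all but Sox9. Counting the first listed start of each marker, ACAAAG occurred in Slc1a3 and Rlbp1, 2 of 9 markers, and in 16% of the first listed starts of 27457 genes. TTGGCA occurred in 2 of 9 markers and 11.7% of genes, GGGCGG in 4 of 9 and 32.4%, and ACAATG and TATAAA in 0 of 9, with 10.9% and 13.1% of genes. Counting any listed start, ACAAAG and TTGGCA were each in 3 of 9 markers, Aqp4 being added for the former and Glul for the latter, and over all 33469 listed starts their shares were 16.3% and 12%. Gja1 and Slc1a2 held none of the 5. A match describes letters in this window and shows no binding.

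Other genes of astrocytes and Muller glia divided into those near 0 and those abundant in every library. Of 27 further astrocyte genes in the table, 11 entered the test and 13 stayed below 1 FPKM in every library. Of 20 further Muller glia genes, 13 were tested and 6 stayed below 1 FPKM. With Chrdl1, 0 of 11 and 0 of 13 passed, with medians of -0.12 and -0.063. Across the codes 8 of 11 and 10 of 13 were called, where 47.4% of all tested transcripts were. Of the called genes 7 and 7 had both pair C libraries above the other 4, which 17.5% of tested transcripts were called with. Mertk (astrocyte list) and Car14 (Muller list), named after their values were seen, reached 1 FPKM in 3 libraries only with the help of pair C. Both were high there and were called, so these counts and the medians that follow carry that selection. Medians of pair C minus the mean of pairs A and B were 0.42 and 0.34. Over all genes of the lists, tested or not, both pair C libraries were highest in 14 of 27 and 10 of 20, against 24% of all transcripts above 0 in some library. They were lowest in 1 and 2, for which no share over all transcripts was computed. The astrocyte list summed to 354 and 383 FPKM in pair B, 554 and 556 in pair A, and 601 and 675 in pair C. The Muller list summed to 810 and 879, 1823 and 2050, and 2405 and 2774 FPKM in the same order. Gfap, the astrocyte intermediate filament, averaged 0.117, 0.071 and 1.198 FPKM. Sox2, a progenitor and glial transcription factor, averaged 0.0635, 0.105 and 0.676 FPKM, and Kcnj10, the main inwardly rectifying potassium channel of Muller glia, 0.117, 0.190 and 1.13 FPKM. Each of the 3 had both pair C libraries above the others. In Gpc5, a glypican of astrocytes, at 0.946, 0.674 and 0.397 FPKM, and in Prdx6, a peroxiredoxin, at 93.9, 93.6 and 81.3 FPKM, both pair C libraries were below the others. These 5 were singled out after their values were seen. Atp1b2, a sodium pump subunit of glia, averaged 32.7, 23.2 and 87.0 FPKM, and Clu, encoding clusterin, 296, 261 and 555 FPKM. Aldoc, an aldolase of astrocytes, was at 364, 238 and 346 FPKM and Dkk3, a Muller glia gene, at 205, 161 and 189 FPKM, and for both the mean was lowest in pair B and lower in pair C than in pair A. Apoe, encoding apolipoprotein E, made by glia and by macrophages, was at 1020, 81.4 and 1381 FPKM. It had the highest mean of the Muller list, and the low sum of that list in pair B rests largely on it. Aldoc had the highest mean of the astrocyte list.

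Other genes of the glutamate cycle differed in both level and pattern. Of 15 genes, 13 were tested, 0 passed with Chrdl1 and 9 were called across the codes, where 47.4% of all tested transcripts were. Of the 9 called, 3 had both pair C libraries highest and 4 had both lowest. Of all tested transcripts 17.5% were called with both highest, and the share called with both lowest was not computed. Slc17a6, the vesicular glutamate transporter of RGCs, averaged 243, 285 and 230 FPKM. Its relative Slc17a7, a vesicular glutamate transporter of other excitatory neurons and of photoreceptors, averaged 6.55, 2.88 and 55.9 FPKM, with pair C at 11.8 times the mean of the others. Slc1a1, the neuronal glutamate transporter EAAC1, was at 27.7, 29.8 and 22.8 FPKM, above both glial transporters in every pair. Slc38a3, a glutamine exporter of glia, was at 0.244, 0.279 and 2.34 FPKM, with both pair C libraries highest. The glutamate transporters Slc1a6 and Slc1a7 stayed between 0.856 and 2.03 FPKM. Slc17a7, Slc1a1, Slc1a6, Slc1a7 and Slc38a3 were named after their values were seen.

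Markers of other cells also differed between the pairs, and their part in the pair C difference was not tested. Both pair C libraries were highest in 24% of all transcripts above 0 in some library, the share to set beside the counts here. The 9 photoreceptor genes summed to 50.4 and 51.1 FPKM in pair C, against 3.04 to 6.06 in the other 4 libraries, and 5 of 9 had both pair C libraries highest. Crx, a transcription factor of photoreceptors and bipolar cells, carried most of it at 4.21, 2.27 and 44.9 FPKM. Of the bipolar, amacrine and horizontal cell genes 6 of 12 were highest in pair C, with sums of 124 and 132 FPKM there and 83.6 to 101 elsewhere. Microglial genes were highest in pair C in 5 of 12, and their sums were 14.6 and 27.2 FPKM in pair B, 202 and 247 in pair A, and 271 and 301 in pair C. Cx3cr1, a defining microglial receptor named after its values were seen, reached at most 0.063 FPKM. Endothelial, mural and fibroblast genes summed to 14.9 and 22.5 FPKM in pair B, 100.1 and 109 in pair A, and 168 and 171 in pair C, with 10 of 14 highest in pair C, and Dcn, a fibroblast proteoglycan named after its values were seen, was at 0 in pairs A and B and 4.98 FPKM in pair C. These 2 lists were lower in pair B than in pair A. So were the sums of the further astrocyte and Muller genes, the latter largely through Apoe. Slc1a3 was 2.91 times as high in pair A as in pair B.

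The sums of oligodendrocyte lineage and RGC genes were not raised in pair C. Oligodendrocyte lineage genes summed to 33.2 to 37.9 FPKM over all libraries, with 2 of 13 highest in pair C, beside 24% of all transcripts above 0 in some library. Their defining factors Sox10 and Olig2 reached at most 0.014 and 0.016 FPKM. Both were named after their values were seen. Of the RGC genes, 1 of 12 was highest and 6 of 12 lowest in pair C. The share of all transcripts with both pair C libraries lowest was not computed. The RGC sums were 4320 and 4328 FPKM for pair A, 3616 and 3619 for pair B, then 3357 and 3775 for pair C. Those of pair C lay on either side of those of pair B, and pair A was above both.

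**Figure D5:**
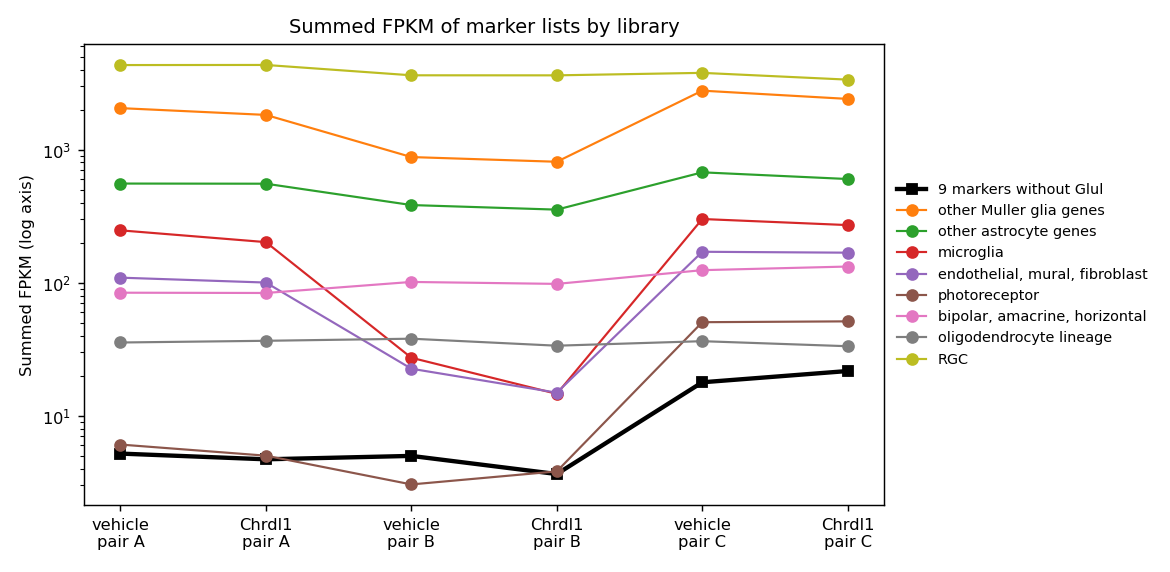
Summed FPKM (vertical log axis) of marker lists in each library, ordered by pair; the black line is the 9 glial markers without Glul. It rises from 3.64 to 5.18 FPKM in pairs A and B to 17.8 and 21.6 in pair C, as do photoreceptor genes, while microglial genes are low in pair B alone and oligodendrocyte genes stay level.

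The tested genes whose pattern over the 6 libraries was most like that of the 4 tested markers were Fn1, Bst1, Bgn, C1r and Ets1. Their Pearson r with the mean of the standardized markers was 0.998 to 0.999 over 6 libraries, which share 3 codes, and 800 of 10386 other transcripts (7.7%) had r above 0.9. Fn1, encoding fibronectin, averaged 27.4, 19.95 and 77.98 FPKM. Bgn, encoding the matrix proteoglycan biglycan, averaged 14.8, 9.83 and 63.95 FPKM, and C1r, a protease of the complement system, 7.47, 4.86 and 25.8 FPKM.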

How the data were processed

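RNA of 6 RGC culture libraries was prepared with a stranded mRNA kit, per the labels' protocols. FastQC, STAR 2.4.0k, HOMER 4.8.3 and build rn6 are named in the submitters' processing notes, without their roles. The annotation release is not stated in the labels. The authors deposited 1 table of FPKM values with transcript lengths. No other transcript of the table overlaps a marker.

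Reads were recovered as whole multiples of what 1 read is worth; of values up to 200 reads, 99.8% to 99.9% came out whole (tolerance 0.0005 FPKM, the rounding of the table), against a chance share of 3.18% to 5.59%. Treatment was tested with limma 3.58.1 in R 4.3.3 (trend, two-sided) on log2(FPKM + 1), treatment as the only term, for the 10390 transcripts with at least 1 FPKM in at least 3 libraries. The codes were tested with a moderated F-test in the same values. Calls are at a Benjamini-Hochberg adjusted p under 0.05 over all tested transcripts. Exact intervals used scipy 1.17.1. The fits were tested on simulated data in which few transcripts differed between the codes, where 47.4% were called in these data. That test therefore does not show how the treatment fit without the block behaves here.

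Libraries sharing a code deviated together: deviations from group means correlated at 0.82, 0.86 and 0.84, and below 0 with libraries of another code, so the codes were taken to pair the libraries. The markers and lists were chosen with earlier results of these data known. Named genes are the markers, up to 4 genes with the highest mean of each list (not all are printed), the 5 genes of most like pattern, and those said to be added. Alternatives were other pseudocounts (0.1, 0.5), other filters (none, or 5 FPKM), quantile normalization, voom, the block and leaving out libraries.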

Additional observations from a re-analysis of the deposited data

How the results depend on the processing

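The Chrdl1 comparison called 0 transcripts in every alternative run, including the replicate block (smallest adjusted p = 0.165, with 535 transcripts at an unadjusted p under 0.05), and likewise gave 0 without any 1 library. The block changed no call. The signs of the 4 tested markers were not stable. Voom on recovered reads turned Slc1a3 to -0.17 and Slc1a2 to -0.023 on the log2 scale, and voom without a filter gave -0.19 and -0.025, but voom with the replicate block gave 0.18 and 0.49 (adjusted p = 0.929 for both). Leaving out both libraries of pair C gave -0.035 and -0.25. With 1 library left out at a time, so that the groups no longer held the same codes, the values were -0.60 to 0.60 for Slc1a3, -0.69 to 0.51 for Slc1a2, -0.50 to 0.20 for Gja1 and -0.24 to 0.052 for Glul. Sox9 went from -0.00046 to 0.14 with voom without a filter. The cause of these turns was not tested. The difference in summed FPKM of the markers was -4.41, and 0.669 without Glul, within the SD of either group.

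The code comparison called 4930 transcripts, and 3148 to 5581 with 1 library left out. The lowest count came without Chrdl1 of pair A. The 4 tested markers stayed called, with pair C above the mean of pairs A and B, in each of the 11 alternatives. S100b and Aldh1l1 passed with voom without a filter (2.43 and 2.08) and not on log2(FPKM + 1). Depth limits Aqp4, Aldh1l1 and Fabp7, with at most 11 reads in a library.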

Other observations

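Relatives of the markers were measured as well, and 0 of the tested genes of any of these families passed with Chrdl1 (limma, adjusted p under 0.05, with 0 at an unadjusted p under 0.05). Among fatty acid-binding proteins, Fabp5 averaged 264, 206 and 243 FPKM in the 3 pairs and Fabp3 was at 36.3, 29.4 and 36.2 FPKM, both far above Fabp7. Fabp4, of adipocytes and macrophages, was at 8.43, 1.60 and 16.9 FPKM. Among S100 proteins, S100a10 was at 351, 255 and 249.47 FPKM, while S100a6 was at 5.10, 2.95 and 39.0 FPKM and S100a11 at 6.26, 5.05 and 21.2 FPKM. The difference of pair C from pairs A and B was 3.14 ± 0.24 (SE, log2(FPKM + 1)) for S100a6, larger than for any tested glial marker.

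Among aquaporins, Aqp11 was at 9.74, 5.71 and 6.82 FPKM, and Aqp1, singled out after its values were seen, was at 0.0475, 0.354 and 2.57 FPKM. Among gap junction genes, the pannexins Panx2 and Panx1 were at 49.2, 48.5 and 42.7 and at 29.6, 24.99 and 20.98 FPKM, and Gjd2, the neuronal connexin 36, at 5.66, 5.57 and 9.65 FPKM. Sox11 and Sox4, neuronal relatives of Sox9, were at 17.7, 21.3 and 12.98 and at 13.5, 16.8 and 16.5 FPKM.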
